A study of Schizosaccharomyces pombe with 15 samples.

Results

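Orc1 belongs to the origin recognition complex, and its chromatin immunoprecipitation list holds 1526 of the 5439 peaks in the 4 lists deposited for fission yeast (Schizosaccharomyces pombe). Every record of the Orc1 list was taken, with no threshold of fold or width. The Orc1 strain, SPY9493, is h90, from SPM1047, with the alleles ade6-M210, leu1-32 and ura4-D18 and with orc1::5xFLAG-orc1-kan, which gives Orc1 5 copies of the FLAG epitope. The 2 Orc1 precipitations with anti-FLAG M2 antibody and the 2 Orc1 inputs (sheared chromatin that was not precipitated) come from this one strain. All 4 samples were grown in rich YES medium at 32 °C and held at 18 °C for 2 hours, and were fixed with formaldehyde for 30 min at 18 °C. The other lists are for Atf1, Pcr1 and Deb1, each tagged with 3xFLAG. There is 1 list for both Orc1 precipitations, and its peak names carry the label of 1 library. The values below therefore have no replicate error, no test was made, and sequencing depth is unknown; all intervals are 95% intervals that cover counting error within this list only.

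The origin recognition complex binds chromosomal DNA and, together with Cdc18 and Cdt1, loads the Mcm2-7 helicase at the places where replication can start. In budding yeast the complex recognises a consensus sequence, whereas in fission yeast its Orc4 subunit carries AT-hook motifs that bind AT-rich DNA with no fixed consensus. Fission yeast origins are known to lie mostly in AT-rich DNA between genes.

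A summit is here the position of the highest signal in a peak, or the interval midpoint where the deposited offset pointed outside the interval. The 4 sequences that follow show the kind of DNA at and between Orc1 summits. They are the summit windows of the 2 peaks of highest fold between genes that point the same way, and the windows midway between close pairs of summits. One of these pairs lies at ars1, a long-studied replication origin beside hus5, which encodes the SUMO-conjugating enzyme. Each is 300 bases of the forward strand of RefSeq assembly ASM294v3, in lower case, with runs of at least 12 bases made only of A and T in capitals.
alr2 summit, chr2:107414-107713: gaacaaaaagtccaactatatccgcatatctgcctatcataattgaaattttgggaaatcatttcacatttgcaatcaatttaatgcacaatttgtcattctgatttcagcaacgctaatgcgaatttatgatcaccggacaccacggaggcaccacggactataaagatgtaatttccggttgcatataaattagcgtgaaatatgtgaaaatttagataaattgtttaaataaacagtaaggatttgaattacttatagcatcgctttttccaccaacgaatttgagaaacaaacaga
hsr1 summit, chr1:1956159-1956458: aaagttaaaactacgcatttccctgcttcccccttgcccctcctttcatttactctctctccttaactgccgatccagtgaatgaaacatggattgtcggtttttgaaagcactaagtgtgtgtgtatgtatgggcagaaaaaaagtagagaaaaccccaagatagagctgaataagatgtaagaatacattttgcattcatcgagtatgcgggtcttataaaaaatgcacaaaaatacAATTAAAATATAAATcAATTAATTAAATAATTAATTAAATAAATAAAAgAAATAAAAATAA
mfs3 and cys11, between the summits of a pair, chr2:847390-847689: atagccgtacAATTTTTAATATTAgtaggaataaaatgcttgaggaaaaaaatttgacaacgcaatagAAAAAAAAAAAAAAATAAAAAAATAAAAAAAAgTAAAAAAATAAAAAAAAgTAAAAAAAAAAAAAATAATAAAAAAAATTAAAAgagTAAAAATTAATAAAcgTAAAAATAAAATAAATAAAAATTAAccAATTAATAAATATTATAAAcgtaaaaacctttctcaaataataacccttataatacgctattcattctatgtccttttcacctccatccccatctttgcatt
hus5 and rpl3802 (ars1), between the summits of a pair, chr1:1095908-1096207: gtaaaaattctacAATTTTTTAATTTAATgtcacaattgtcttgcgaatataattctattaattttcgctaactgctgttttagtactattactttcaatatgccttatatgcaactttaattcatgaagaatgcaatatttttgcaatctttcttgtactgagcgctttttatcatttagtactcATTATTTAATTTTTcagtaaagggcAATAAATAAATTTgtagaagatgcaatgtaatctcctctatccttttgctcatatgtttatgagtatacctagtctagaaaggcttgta
The alr2 window holds 66.7% A and T and its longest pure A/T run is 10 bases, so nothing in it is in capitals. The hsr1 window holds 68.3% and its longest run, of 32 bases, lies near its right edge and not at the summit in its centre. The window between mfs3 and cys11 holds 81.3% with a longest run of 33 bases, and the ars1 window holds 72.7% with a longest run of 16 bases.

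Orc1 summits came in close groups separated by long empty stretches on all 3 chromosomes. Chromosome 1 held 646 peaks, chromosome 2 held 605 and chromosome 3 held 275, which is 11.6, 13.3 and 11.2 peaks per 100 kb. The median distance between neighbouring summits was 2347 bp on chromosome 1 (interval 1820 to 2990), 2010 bp on chromosome 2 (1719 to 2504) and 2884 bp on chromosome 3 (1970 to 3685). The 3 intervals overlap. Over the whole list the median was 2266 bp (1961 to 2641) but the mean was 8239 bp, with an SD of 12728 bp. Of the 1523 neighbouring pairs, 465 (30.5%) were at most 1 kb apart and 731 (48.0%, 45.5 to 50.5) at most 2 kb apart. Distances under 300 bp were found in 18 pairs, and the single fullest classes of 100 bp were those between 400 and 700 bp, with 77, 72 and 78 pairs. At the other end, 62 pairs (4.07%) were at least 40 kb apart. The spacing depended on the caller's threshold: the 871 peaks with a caller −log10 q of at least 10 had a median distance of 4794 bp, and the 279 peaks of at least 3-fold had one of 25834 bp. Among those 3-fold peaks 13.4% of neighbours were still within 1 kb.

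**Figure D1:**
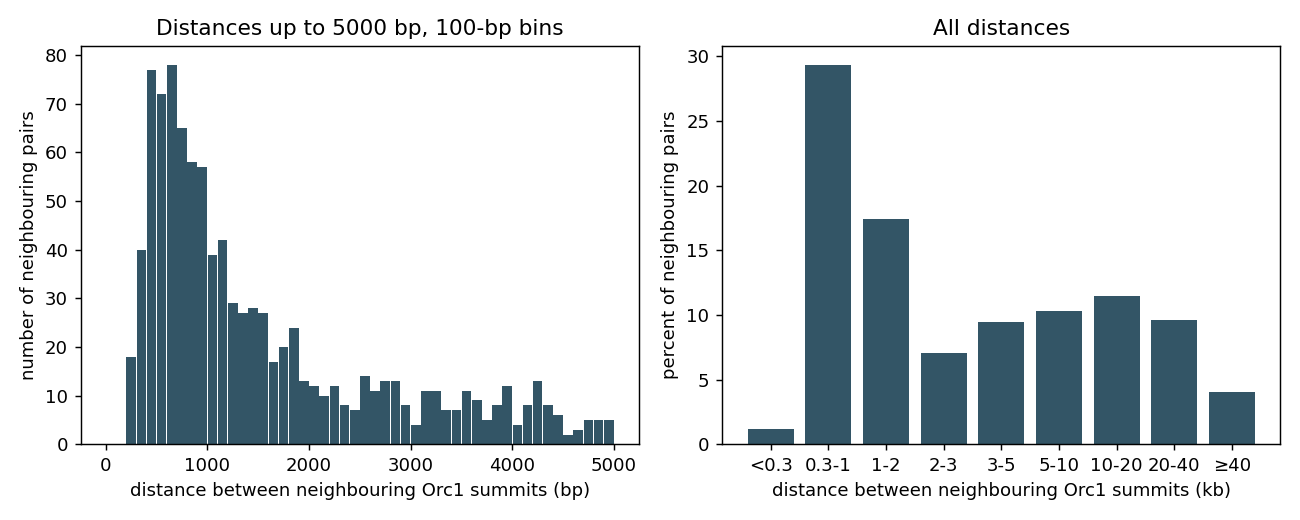
Distances between neighbouring Orc1 summits on the 3 chromosomes. Left, number of neighbouring pairs in classes of 100 bp up to 5000 bp; right, percent of all 1523 pairs by distance class in kb. The fullest classes lie between 400 and 700 bp, and 4.07% of pairs are at least 40 kb apart.

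The other 3 lists had larger median distances and a smaller spread of distances relative to the mean. The median distance was 4013 bp for Atf1 and 5005 bp for Pcr1, both stress-response transcription factors, and 21484 bp for Deb1. The mean distance was 6313 bp for Atf1, 8037 bp for Pcr1 and 35660 bp for Deb1, so those of Atf1 and Pcr1 were below the 8239 bp of Orc1. Neighbours within 1 kb made up 20.5% of pairs for Atf1, 20.6% for Pcr1 and 4.89% for Deb1, against 30.5% for Orc1. Stretches of at least 40 kb without a summit numbered 8, 25 and 116 for Atf1, Pcr1 and Deb1, against 62 for Orc1. The SD of the distances divided by their mean was 1.54 for Orc1, 1.12 for Atf1, 1.17 for Pcr1 and 1.09 for Deb1. The lists differ in their number of peaks (1995, 1567 and 351 for Atf1, Pcr1 and Deb1). They also differ in control: input samples exist for Orc1 and Deb1 only, so the Atf1 and Pcr1 lists had no input of their own. This limit holds for every comparison between the lists below. The differences in spacing between lists were not tested.

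Chaining summits that lay at most 1000 bp apart turned the 1526 summits into 1061 sites. Of these sites, 736 (69.4%) had 1 summit, 236 (22.2%) had 2, and 89 (8.39%) had 3 or more, with 14 as the most. The 790 summits of the sites with more than 1 summit were 51.8% of the list. The median fold of a site's highest peak was 2.13 for sites of 1 summit, 2.60 for sites of 2 and 2.93 for sites of 3 or more; a site with more peaks has more chances of a high one. The median distance between sites, measured from the last summit of one to the first of the next, was 5128 bp (4465 to 5836).

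Runs of at least 3 summits, each at most 2000 bp from the next, were called clusters. There were 149 of them, with 73 of 3 summits, 29 of 4 and 47 of 5 or more, and they held 699 summits (45.8%). The largest clusters lay near chromosome ends: 8 of the 11 clusters with at least 10 summits were within 100 kb of an end, all 8 on chromosomes 1 and 2. The cluster with most summits was on chromosome 2 at 9879 to 22480, between ftm5 and SPBC1348.09, with 18 summits of 1.60-fold to 3.66-fold. It was followed by 16 summits on chromosome 1 at 26304 to 41377 (SPAC212.03 to pfl6, which encodes a glycoprotein) and 15 on chromosome 1 at 5523430 to 5540207 (SPAC869.01 to gdt1). Both of the next clusters were on the right arm of chromosome 2, each with 13 summits. One ran from gal10, which encodes an epimerase of galactose metabolism, to ftm7, and the other from pho84, a phosphate transporter gene, to nrg1. In the list as a whole, 410 records (26.9%) had exactly the fold and −log10 q of at least one other record. This held for 84 of the 160 peaks within 50 kb of an end and 50 of the 84 between the genes that flank the centromeres, against 264 of the 1262 peaks outside those places and the mating-type region. Whether such records are copies of one sequence was not tested, and some are neighbours with the same peak name. With each such set counted once, 99 clusters were left.

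More than 100 kb from an end and outside the centromeric stretches there were 17 clusters of at least 5 summits. One had 10 summits on chromosome 2 at 1262043 to 1271633, between dbl7 and trz2 (a nuclease that trims tRNA ends), with a highest fold of 4.80. Another had 8 summits on chromosome 1 at 3574096 to 3580205, between csx1, which encodes an RNA-binding protein, and rrp1, which encodes a helicase. Another cluster of 8 lay on chromosome 1 at 1664174 to 1669858, between msc1 and gta2. A further 8 summits lay just over 100 kb from the left end of chromosome 2, at 106602 to 114233 between SPBPB10D8.07C and pfl7, and include the peak of highest fold in the list, 6.54. These 4 were picked for their size after the clusters were listed.

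With the ends of all chromosomes pooled, peak density rose towards the ends. It was 52.7 per 100 kb within 25 kb of an end (79 peaks), 54.0 from 25 to 50 kb (81 peaks) and 42.7 from 50 to 100 kb (128 peaks). It fell to 13.7 from 100 to 200 kb, and was 10.3 from 200 to 400 kb and 10.1 farther in. The median fold stayed between 2.12 and 2.32 across these classes, so the end peaks were more closely packed and not of higher fold. In full windows of 100 kb laid from the left end of each chromosome, the count ran from 1 to 72 with a median of 10. The shorter remainder at each right end is not among these windows. The fullest of them were the first of chromosome 2 (72 peaks) and the first of chromosome 1 (61 peaks). Chromosome 3 did not show this rise in its full windows of 100 kb. Its first window held 13 peaks and its last full window 7, against a mean of 11.25 for that chromosome.

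**Figure D2:**
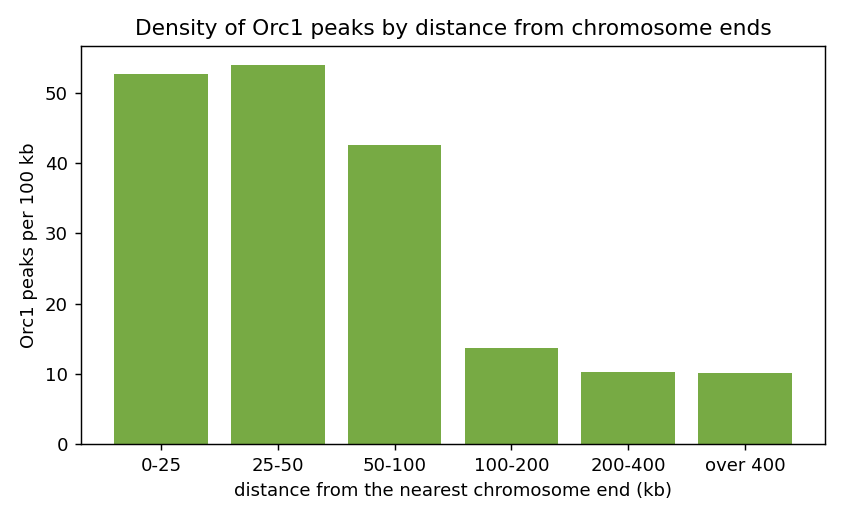
Orc1 peaks per 100 kb (vertical axis) by distance from the nearest chromosome end in kb (horizontal axis), all 6 ends pooled. Bars within 100 kb of an end stand between 42.7 and 54.0, and those beyond 200 kb stand at 10.3 and 10.1. The first 100 kb of chromosome 3 held 13 peaks.

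The centromeres also held many summits, in stretches of 39533, 51524 and 78895 bp on chromosomes 1, 2 and 3. The other regions between tandem genes held 22.9 summits per 100 kb. Of the 84 centromeric summits, 50 were records that share fold and −log10 q with another record. The long stretch without coding genes on chromosome 1 between per1 and emc5 (3751447 to 3790979) held 27 summits, the highest at 4.18-fold. On chromosome 2 the stretch between rpb1, which encodes the largest subunit of RNA polymerase II, and yox1 (1596711 to 1648234) held 23, up to 5.11-fold. On chromosome 3 the stretch between meu27 and ppc1 (1064196 to 1143090) held 34, up to 5.26-fold. Outside centromeres the region with most summits was that between SPBCPT2R1.04C and tlh2, a subtelomeric gene for a RecQ-type helicase, with 10 summits in 12283 bp. The 4159-bp region between the acid phosphatase gene pho1 and fub2 held 6. The regions between SPBPB10D8.02C and SPBPB10D8.04C, between SPCC338.03C and the alpha-glucan synthase gene ags1, and between grt1 and SPBPB8B6.05C held 5 each.

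Stretches of at least 40 kb without any summit numbered 31 on chromosome 1, 18 on chromosome 2 and 13 on chromosome 3, and together they made up 25.6% of the genome. The longest was 98825 bp on chromosome 2 (365477 to 464302, SPBC1271.03C to SPBC428.10). It holds 40 genes and 8 regions between coding sequences longer than 1500 bp, the longest of 2976 bp. The next on that chromosome was 78779 bp (965368 to 1044147), from txc1 to the carboxypeptidase gene ecm14. On chromosome 1 the longest was 80644 bp (3220361 to 3301005), from the proteasome subunit gene pre5 to eme1, a Holliday junction resolvase subunit gene, with 32 genes and no region over 1494 bp. The second was 66915 bp (365180 to 432095), from the rRNA methyltransferase gene bmt2 to SPAC13C5.04. On chromosome 3 they were 75193 bp (1216776 to 1291969), from the vigilin gene vgl1 to the channel gene trp1322, and 71427 bp (854795 to 926222), from the splicing gene prp28 to the end-joining gene xlf1. Across all 62 stretches, 63.2% of bases were coding, against 56.9% of the genome. Regions between coding sequences over 1500 bp made up 9.08% of the regions there (115 of 1267), against 16.2% of all regions. AT content was 63.7% in the stretches and 63.9% in the genome. For the regions over 1500 bp alone the mean AT content was 67.7% in the stretches and 67.9% outside them.

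Peaks were 318 bp wide at the median (304 to 330), with the middle 50% of widths between 212 and 509 bp. All widths here are those of the deposited intervals, and some neighbouring intervals carry the same peak name. Whether such intervals, or the narrowest ones, are parts of a wider called peak was not tested. Leaving out the peaks whose summit had to be set to the midpoint gave a median of 321 bp (306 to 334). The median was 327 bp on chromosome 1, 307 bp on chromosome 2 and 302 bp on chromosome 3. Peaks over 1 kb numbered 95. The 3 widest, of 5379, 5073 and 5069 bp, lay next to each other at the left end of chromosome 3 over annotated ribosomal RNA genes, at 2.84-fold, 2.06-fold and 2.33-fold. The 3 narrowest were 76 bp between SPCC338.03C and ags1, 98 bp between the nucleosome assembly gene nap2 and the repair gene rhp23, and 104 bp between the ATP synthase subunit gene atp15 and bch1, each under 1.8-fold. Wider peaks had higher folds: the median was 1.92 up to 250 bp, 2.28 from 250 to 500 bp, 2.85 from 500 to 1000 bp and 3.08 above that (Spearman's rho across the 1526 peaks 0.55). Fold and width come from the same signal.

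Annotated repeats other than coding genes took some of the list. Peaks touched 148 of the 171 tRNA genes, in 123 peaks with a median fold of 3.01, and 39 of the 47 rRNA genes. They touched 38 of 238 long terminal repeats, the end sequences of retrotransposons, and none of the 13 Tf2 element genes. For comparison, peaks touched 656 of the 5113 protein-coding genes (12.8%) and covered 5.28% of the genome; tRNA genes were touched in 86.5% of cases, rRNA genes in 83.0% and long terminal repeats in 16.0%.

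Most summits lay between coding sequences. Of the 1526, 595 lay between tandem genes, 480 between divergent genes (both starts facing the summit), 141 between convergent genes (both stops facing it) and 282 within the span of a coding gene. A further 8 lay beyond the outermost coding gene of a chromosome arm, and 20 lay in the stretch of chromosome 2 around the mating-type region that could not be placed on the reference. The median fold was 2.31 between tandem, 2.34 between divergent and 2.27 between convergent genes, and 1.86 within genes. Peaks of at least 3-fold made up 22.2%, 22.5% and 16.3% of these, and 5.67% within genes.

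Divergent regions held 39.5% of the 1216 summits between genes (36.7 to 42.3), tandem regions 48.9% (46.1 to 51.8) and convergent regions 11.6% (9.85 to 13.5). Of all bases between coding sequences, 36.8% lay in divergent, 48.6% in tandem and 14.6% in convergent regions. Summits were thus more frequent per base between divergent than between convergent genes, but the difference from the bases turned round for both kinds when annotated gene ends were used in place of start and stop codons. Divergent regions then held 41.0% of summits and 43.9% of bases, and convergent regions 11.8% of summits and 9.27% of bases. Without the 3 centromeric stretches, divergent regions held 42.4% of summits and 38.1% of bases. For Atf1, Pcr1 and Deb1 the divergent share was 44.8%, 42.7% and 48.3%, and the convergent share was 6.26%, 5.15% and 3.97%.

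The length of a region went with whether it held a summit. Orc1 summits were in 759 of 5063 regions between coding sequences (14.99%, 14.0 to 16.0), and 253 regions held more than 1. Up to 500 bp, 36 of 1754 regions (2.05%) held one. The share was 6.98% from 500 to 1000 bp, 21.3% from 1000 to 1500 bp, 38.1% from 1500 to 2000 bp, 58.4% from 2000 to 3000 bp and 75.1% above 3000 bp (136 of 181). At equal length, convergent regions were occupied at least as often as the others in the classes from 500 to 3000 bp, though not above 3000 bp. From 1000 to 1500 bp the share was 35.4% (28 of 79), against 19.9% (15.7 to 24.8) of divergent and 19.6% (15.8 to 23.9) of tandem regions, and the interval of the convergent share began above both. With annotated gene ends the same class gave 68.8% of convergent (11 of 16), 29.6% of divergent and 38.9% of tandem regions. Among regions of 1 to 2 kb, occupancy also went with base composition. With these regions ranked by AT content and split into 4 equal groups, it was 17.4% in the lowest group, then 19.2% and 30.1%, and 39.9% in the highest. In divergent regions the lowest and highest groups had 12.03% and 47.6%, and in tandem regions 23.1% and 30.3%. The rise was not steady in every orientation: the second tandem group had 19.9%. In convergent regions the 4 groups, of 17 to 38 regions each, had 15%, 52.9%, 34.6% and 44.7%.

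**Figure D3:**
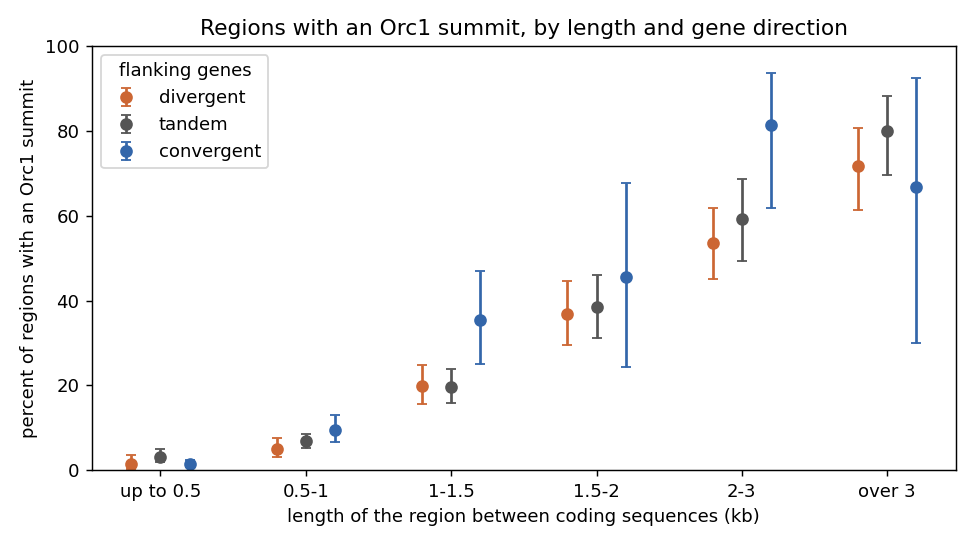
Percent of regions between coding sequences that hold an Orc1 summit (vertical axis) by length of the region in kb (horizontal axis), for divergent, tandem and convergent flanking genes; bars are exact 95% binomial intervals. The share rises with length for each orientation up to 3 kb, and from 1 to 1.5 kb convergent regions stand at 35.4% and the others below 20%.

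Within regions over 1 kb, centromeres left out, summits were spread over the region with some excess in the middle. The middle of 3 equal parts held 42.2% of summits in divergent, 40.5% in tandem and 46.7% in convergent regions. The median summit between divergent genes was 713 bp from the nearer start codon, and the median summit between convergent genes was 536 bp from the nearer stop codon.

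The peak of highest fold in the list, 6.54, lay on chromosome 2 with its summit at 107564, between the permease gene SPBC359.01 and the alanine racemase gene alr2. It was 195 bp before the alr2 start codon, in a region of only 885 bp. The highest convergent peak of the first 2.11 Mb of that chromosome was nearby, at 110657 between alr2 and the permease gene aat1, at 4.55-fold. On chromosome 1 the highest tandem peak was 5.57-fold at 1956309, in the 8310-bp region before hsr1, which encodes a DNA-binding transcription factor, and the peak was 4193 bp wide. On chromosome 3 it was 5.31-fold at 2067440, between wtf21 and amt1, the latter an ammonium transporter gene. The highest divergent peaks were 5.16-fold in the first 2.11 Mb of chromosome 2 between mfs3 and cys11, which encodes a cysteine synthase, and 5.06-fold on chromosome 1 between SPAC1805.16C and crm1, the nuclear export receptor gene. On chromosome 3 it was 3.85-fold between knh3 and spb70, which encodes the B-subunit of DNA polymerase alpha. The highest convergent peaks of the other chromosomes were 4.97-fold on chromosome 1 between SPAC750.01 and SPAC750.02C and 3.99-fold on chromosome 3 between the hexose transporter gene ght6 and SPCC1235.17.

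At ars1 the list held a pair of moderate peaks in the 1496-bp region between hus5 and rpl3802. The left summit, at 1095675, was 1.99-fold and 282 bp before the hus5 start codon. The right one, at 1096442, was 2.41-fold, and its peak overlaps annotated tRNA genes. At ura4, whose surroundings hold the known origins ars3002 to ars3004, the ura4-D18 allele of this strain lacks the gene (annotated at 115589 to 116625 on chromosome 3), so no summit could be found in it. The nearest summit was 1534 bp to its right at 118159, between new25 and pmp20 (2.48-fold), and the next was 1791 bp to its left at 113798, between mug135 and tam14 (2.33-fold). Of 25 genes that license or fire origins, 2 (8%, 0.984 to 26.0) had one in the region upstream of their coding sequence, against 938 of 5078 protein-coding genes (18.5%), a share inside that interval. These were mcm7, which encodes a subunit of the replicative helicase, at 3.67-fold, and orc4, at 1.77-fold.

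Orc1 summits sat in a narrow dip of AT content between AT-rich shoulders. Over chromosomes 1, 3 and the first 2.11 Mb of chromosome 2, the window of 51 bp at the summit held 61.8% ± 8.58 AT (SD over 1217 summits) and windows 150 to 300 bp away held 69.1% ± 4.68. Windows at least 1200 bp away held 64.2%. The shoulders were higher than the summit at 1003 summits (82.4%), by 7.28 ± 8.74 percentage points on average. For comparison, DNA between coding sequences held 68.5% and coding DNA 60.4%. The 231 peaks of at least 3-fold had 60.9% at the summit and 71.3% in the shoulders, and the 434 peaks under 2-fold had 61.6% and 67.1%. Summits within coding spans also had a dip, with 58.3% at the summit and 65.4% at 150 to 300 bp, but that was only 0.751 points above the 64.6% at 1200 bp and beyond. The dip itself was also present in other lists: Atf1 summits had 58.2% and shoulders of 64.6%, Pcr1 summits 58.3% and 65.0%, and Deb1 summits 63.1% and 65.8%. The Orc1 shoulders were the highest of the 4 lists and stood 4.89 points above the level at 1200 bp, against 0.911 for Atf1, 1.51 for Pcr1 and 2.40 for Deb1. On chromosome 2 beyond 2.16 Mb, where list positions were lowered by 12.2 kb to match the reference, the same windows at Orc1 summits held 62.4% and 69.0% (287 summits).

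**Figure D4:**
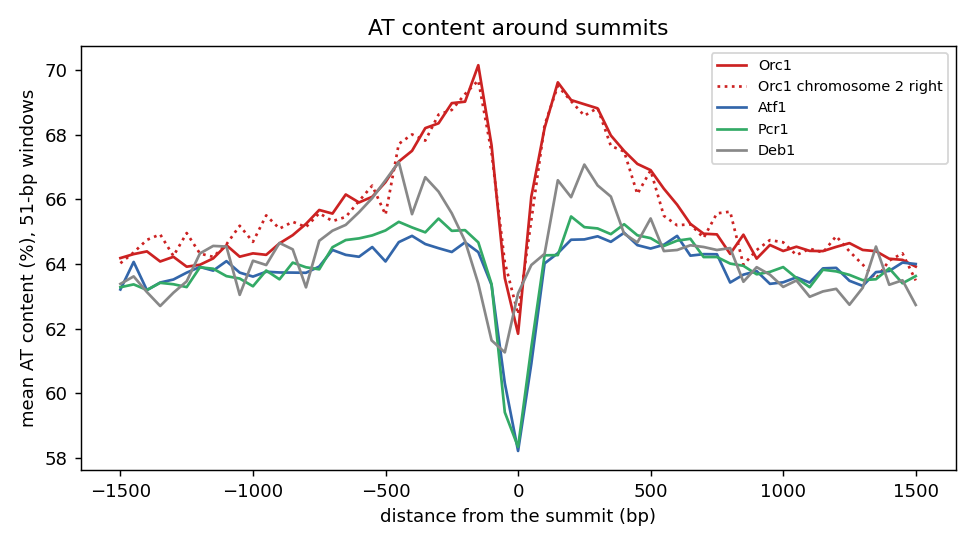
Mean AT content in percent (vertical axis) of 51-bp windows by distance from the summit in bp (horizontal axis) for the 4 lists, and for Orc1 on chromosome 2 beyond 2.16 Mb after the shift (dotted). Orc1 falls to 61.8% at the summit between shoulders near 70%; Atf1 and Pcr1 fall to 58.2% and 58.3% between lower shoulders.

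Where summits came in close pairs, the most AT-rich DNA lay between them. Over 370 neighbouring pairs at most 1000 bp apart, windows of 151 bp held 72.6% ± 6.94 AT at the midpoint, 63.8% ± 4.38 at the summits and 66.7% ± 5.03 at the same distance outside the pair. The midpoint was above both summits in 303 pairs (81.9%, 77.6 to 85.7), and 255 of the pairs lay in 1 region between genes. A pair can share a summit with the next pair, so these are not independent. Neighbouring intervals with the same peak name also count as pairs. The midpoint exceeded the summits by 8.86 points on average, and by 9.07 with only pairs whose summit offsets both lay inside the interval. The excess of the midpoint over the summits was 10.6 percentage points for pairs up to 400 bp apart, 9.64 from 400 to 600 bp, 9.03 from 600 to 800 bp and 6.76 from 800 to 1000 bp. It was 4.40 from 1000 to 1500 bp and −0.43 from 1500 to 2000 bp, so the pattern ended at about that distance. The 87 pairs on the shifted arm of chromosome 2 had 73.4% at the midpoint and 64.8% at the summits. Pairs of Atf1 summits had 66.1% and 59.8% (311 pairs), and those of Pcr1 66.7% and 59.9% (249 pairs). With the shifted arm included, 305 Orc1 pairs lay within 1 region, of which 136 were between divergent genes, 150 between tandem and 19 between convergent genes, with 75.1%, 73.2% and 74.6% AT at the midpoint.

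**Figure D5:**
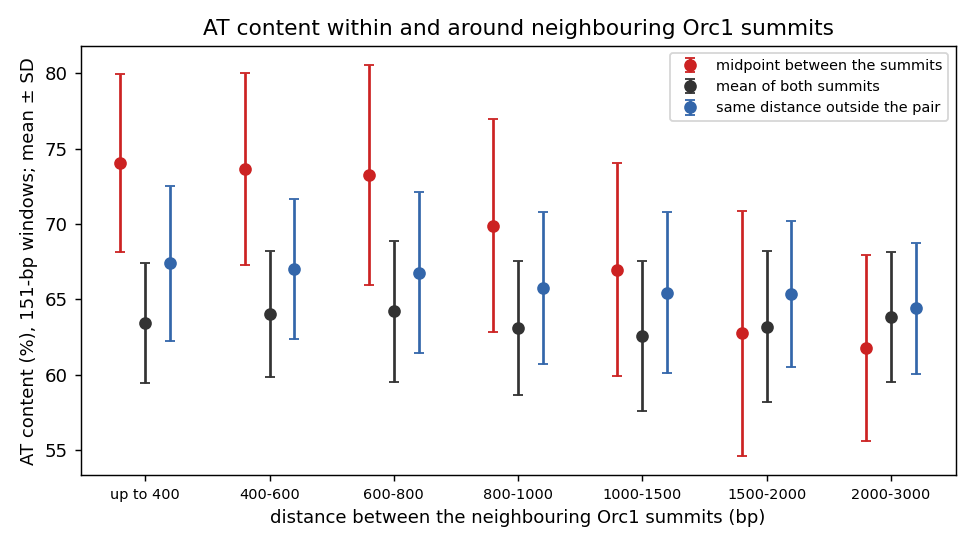
AT content in percent (vertical axis, mean ± SD over pairs, 151-bp windows) at the midpoint between neighbouring Orc1 summits, at the summits, and at the same distance outside the pair, by distance between the summits in bp (horizontal axis). The midpoint stands above both others up to 1500 bp and below them from 1500 bp on.

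Both pairs printed above are among the 303 with the midpoint above both summits. Between mfs3 and cys11 the summits, 383 bp apart at 5.16-fold and 4.37-fold, had 66.9% and 65.6% AT and the midpoint had 92.7%. At ars1 the summits, 767 bp apart, had 71.5% and 47.0% and the midpoint 74.2%. The pair between wtf21 and amt1, 558 bp apart at 5.31-fold and 5.22-fold, did not have this order. Its midpoint had 65.6%, below the 74.8% of its left summit and above the 55.6% of its right one. The convergent pair between SPAPB15E9.06 and Tf2-5 had 80.1% at the midpoint and 66.2% and 70.2% at the summits.

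Pure A/T runs of at least 20 bases had the same layout. They lay within 50 bp of 1.56% of Orc1 summits, within 150 bp of 15.7% (13.7 to 17.8, 191 of 1219) and within 500 bp of 53.6%. Over the 4054872 positions between coding sequences the shares were 4.08%, 11.9% and 29.3%, so such runs were rarer right at the summit and more frequent within 500 bp. These positions leave out coding DNA, whereas 211 of the 1219 summits lay within coding spans. Of those 211, 8.53% had a run within 150 bp. The share was 18.4% of divergent, 17.8% of tandem and 9.84% of convergent summits. With summits split into 4 equal groups by fold, 25.2% of the highest group had a run within 150 bp, against 7.21% of the lowest. At midpoints of close pairs the share was 41.4% (36.3 to 46.6, 153 of 370). Within 150 bp of single Atf1, Pcr1 and Deb1 summits the share was 4.23%, 4.96% and 3.38%, against the 15.7% of single Orc1 summits.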

How the data were processed

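Per the labels' protocols, chromatin was precipitated with anti-FLAG antibody on beads for 3 hours. Bowtie 1.2.3, MACS2 2.1.2 and bedtools are named in the submitters' processing notes, and no settings are. For the genome build of the lists, the sources used here give none. Each deposited record holds the authors' fold, a ratio of precipitate to control. It also holds a score, the −log10 of p and the −log10 of q from the authors' caller, and the offset of the summit. These deposited values served to describe, rank and filter peaks inside 1 list.

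The summit was the start plus the offset, or the midpoint in the 109 peaks whose offset pointed outside the interval; positions are counted from 1. Genes and sequence came from RefSeq assembly ASM294v3. Chromosome 2 positions beyond 2.16 Mb were lowered by 12.22 kb before use with genes, and those from 2.11 to 2.16 Mb were not placed; report positions of peaks are those of the list. AT content around Orc1 summits on that arm was highest at a shift of 12200 bp in steps of 10 bp (67.6%, against 63.1% with none). Gene borders were start and stop codons. Medians have exact order-statistic intervals and shares exact Clopper-Pearson intervals. Scripts (Python 3.11.15, pandas 2.3.3, numpy 2.4.6, scipy 1.17.1) were tested on simulated positions. The Orc1 peaks, the gene list and the named items were chosen with earlier results of these data known: the 2 longest stretches without summits per chromosome, the 5 largest clusters, the 5 regions with most summits, the 3 widest and narrowest peaks, the highest peak per orientation and chromosome, and 2 textbook origins; some sequences of the named items are not reported here; 4 clusters away from ends and centromeres and the pairs were added later.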

Additional observations from a re-analysis of the deposited data

How the results depend on the processing

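Of 96 recomputed values, 54 stayed close to the value reported and 42 did not; close means inside its 95% interval for a share, median or mean and within 1.5 times for a count. With annotated gene ends, the orientation shares relative to the share of bases turned round for divergent and convergent regions (41.0% of summits and 43.9% of bases, and 11.8% and 9.27%). The cause was not tested beyond what each setting removes. With only peaks of a caller −log10 q of at least 10, the median distance was 4793.5 bp, neighbours within 2 kb 34.4%, clusters 52, empty stretches 101, width 413 bp, occupied regions 10.5% and summits with an A/T run 20.1%; the spacing was 10633 bp for Atf1 and 13089 bp for Pcr1. With only peaks of at least 3-fold these were 25834 bp, 21.7%, 8, 115, 595 bp, 4.03% and 25.5%, and the convergent share was 8.75%. Both settings keep fewer peaks. Without peaks at annotated repeats or within 50 kb of an end, the median distance was 3139 bp, neighbours within 2 kb 42.8% and occupied regions 11.9%. Counting records of identical fold and −log10 q once gave 3896 bp, 38.5%, 99 clusters and 13.0%. Merging summits within 500 bp gave 2977.5 bp and 41.8%. Clusters with neighbours within 1000 bp numbered 89, and empty stretches numbered 120 from 30 kb and 28 from 50 kb. The A/T run share was 11.98% around interval midpoints, 41.9% and 3.61% for runs of at least 15 and 30 bases, and 1.56% and 53.6% within 50 and 500 bp.

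Further settings were chosen after seeing the data. Chaining summits within 1000 bp and keeping the summit of highest fold in each site gave a median distance of 5531.5 bp. Without the centromeric stretches the divergent share was 42.4% and the tandem share 45.1%. The difference in AT content between shoulder and summit was 8.52 points for −log10 q of at least 10, 10.4 for at least 3-fold, 6.60 on the shifted arm and 6.34 without repeats and ends. Between close summits it was 10.8 for −log10 q of at least 10. No paired analysis was possible because there is 1 Orc1 list for both precipitations, and no result comes from a test; for the same reason no replicate could be left out. The depth of the libraries is unknown, so the list cannot show which empty stretches would gain peaks with more reads.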
